A study of Mus musculus with 8 samples.

Results

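In mouse kidney 24 h after lipopolysaccharide, 10 entries of a miRNA array were examined: mmu-miR-6366, mmu-miR-3963, mmu-miR-5100, mmu-miR-3968, mmu-miR-6538, mmu-miR-6240, mmu-miR-6238, mmu-miR-2137, mmu-miR-5112 and mmu-miR-709, written below without the species prefix. They were picked by name from the 1881 entries on the array as bright or repeat-derived entries that may report pieces of other RNAs. All 10 were on the array, each with 2 probes of 15 spots. The choice rested on brightness in these same arrays, so levels and shares of signal are given as a description and are not tested. The 4 LPS arrays (replicates 6, 10, 11 and 12) held kidney RNA of mice given lipopolysaccharide (LPS, an outer-membrane component of Gram-negative bacteria) by intraperitoneal injection at 10 µg per g, a model of septic acute kidney injury. The 4 sham arrays (replicates 5, 6, 7 and 8) held kidney RNA of mice given saline, also collected after 24 h. The labels give no strain, sex or age for either group. They do not say whether each sample came from its own mouse, so p-values measure only the spread between these samples.

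A canonical miRNA is cut from a hairpin precursor by Drosha and Dicer and loaded into an Argonaute protein, where bases 2 to 8, the seed, pair with target mRNAs. Entries without an arm in their name were annotated from a single strand, often from a few sequencing reads, and some such entries in miRNA catalogues have since been recognised as pieces of ribosomal, transfer or repeat RNA. Total kidney RNA holds far more ribosomal and transfer RNA than miRNA, and an array probe of a few bases may bind other labelled RNA that carries its complement. Binding to a complement inside a longer RNA was not tested. The labelling reaction removed phosphates and joined a dye to the 3′ end of RNA, a chemistry that does not select miRNAs. All 10 names lack an arm, as do 321 of all 1881. MiR-709 has been described as a nuclear miRNA that acts on the precursor of miR-15a and miR-16-1 in mouse. No role is stated here for the other 9.

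The mature sequences are shown first because the array's probes were built on them. RefSeq (build GRCm38.p6) gave the mature sequence of 8 of the 10, written 5′ to 3′ with the seed in capitals. MiR-5112 and miR-709 are named only.
miR-6366: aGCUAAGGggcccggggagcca
miR-3963: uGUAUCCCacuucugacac
miR-5100: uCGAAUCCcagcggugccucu
miR-3968: cGAAUCCCacuccagacacca
miR-6538: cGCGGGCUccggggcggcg
miR-2137: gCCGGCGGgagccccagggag
miR-6240: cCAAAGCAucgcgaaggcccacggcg
miR-6238: uUAUUAGUcaguggaggaaaug

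No 2 of these 8 share a seed. Among 1679 mature sequences of the table, 1 other carries the seed of miR-6240 (miR-330-3p), and the other 7 seeds belong to no further miRNA. GC content spanned 36.4% (miR-6238) to 94.7% (miR-6538), with a median of 65.6%, while the 291 tested entries found in RefSeq had a median of 50%.

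In GRCm38.p6 the mature miR-6366 lies on the minus strand at chr16:18165093-18165114 and miR-3963 on the minus strand at chr3:151023839-151023857, both outside the bounds of any other gene in the RefSeq table. MiR-5100 (chr11:60728698-60728718, plus strand) lies within the bounds of Mief2, and miR-3968 (chr11:115447969-115447989, minus strand) within those of Trim80. MiR-6538 (chr12:26414970-26414988, minus strand) lies within Rnf144a and miR-2137 (chrX:72992113-72992133, plus strand) within Zfp185. MiR-6240 (chr5:114851973-114851998, plus strand) and miR-6238 (chr7:53891796-53891817, minus strand) likewise lie outside the bounds of other genes. The table does not give exons, so exonic and intronic positions were not told apart.

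Of the 4 brightest entries, 3 carry the stretch AUCCCA near the 5′ end, shown in capitals because the other 5 sequences lack it.
miR-3963: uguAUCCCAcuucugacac
miR-5100: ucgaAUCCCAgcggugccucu
miR-3968: cgaAUCCCAcuccagacacca
The stretch stands in 7 of the 1679 mature sequences (0.417%). MiR-5100 and miR-3968 share the longer CGAAUCCCA, which no other mature sequence of the table holds. MiR-3963 and miR-3968 share AUCCCACU, which is likewise found in those 2 alone. MiR-6366 and miR-3968 end in CCA at the 3′ end, as do 23 of the 1679 sequences (1.37%). As background, mature transfer RNAs end in CCA. The search covered mature miRNAs only and was made after the sequences had been read. Whether transfer RNA or ribosomal RNA contributes to the signal was not tested.

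The array probes are complementary to the 3′ end of each entry, and in the 8 entries with a RefSeq sequence every base of both probes matched it. The longer probe of the entries that carry the results is printed in the DNA letters of the array.
miR-6366: tggctccccggg
miR-3963: gtgtcagaagtgggat
miR-5100: agaggcaccgctgg
miR-3968: tggtgtctggagtgg
miR-6538: cgccgccccg
The stretch AUCCCA is therefore covered in full by the 16-base probe of miR-3963 (bases 4 to 19), but not by the longer probes of miR-5100 (bases 8 to 21) and miR-3968 (bases 7 to 21). The 20 member probes ranged from 9 to 16 bases with a median of 12.5, against 9 to 23 bases with a median of 16 over all 4415 probes. The shorter probe of miR-6538 has 9 bases, a length that only 3 probes of the array have. The complement of each printed probe, and of the shorter probe beside it, was found in 0 other mature miRNAs of the table.

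MiR-6366, miR-3963, miR-5100 and miR-3968 dominated the light collected from the arrays. The share of the summed background-subtracted signal of all 1881 entries that fell on miR-6366 was 33.4%, 30.0%, 32.4% and 33.8% on LPS replicates 6, 10, 11 and 12. It was 37.2%, 36.6%, 36.2% and 36.9% on sham replicates 5, 6, 7 and 8. MiR-6366 was the brightest entry on all 8 arrays, and every LPS array lay below every sham array. MiR-3963 held 19.6%, 19.9%, 19.4% and 19.5% on the LPS arrays, against 22.1%, 20.8%, 21.4% and 20.8% on the sham arrays, and ranked 2 throughout. MiR-5100 averaged 3.69% ± 0.22 in LPS and 4.35% ± 0.10 in sham kidneys (SD, n = 4 each). MiR-3968 averaged 2.37% ± 0.12 in LPS and 2.90% ± 0.07 in sham kidneys (SD, n = 4 each). These entries ranked 4 and 5 on each LPS array and 3 and 4 on each sham array. MiR-21a-5p, an injury-induced miRNA in kidney, held 5.31% of the LPS and 1.05% of the sham signal.

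The 10 entries together held 58.3% ± 1.46 of the signal on LPS arrays and 65.5% ± 0.98 on sham arrays (SD, n = 4 each), a difference of -7.21 percentage points. By array these sums were 59.5%, 56.4%, 57.7% and 59.4% in LPS and 66.9%, 64.9%, 64.9% and 65.1% in sham kidneys, so the groups did not overlap. With miR-21a-5p left out of the denominator, an alternative chosen after seeing the data, the sums were 61.5% in LPS and 66.2% in sham kidneys. The summed signal of the 10 entries before any scaling was 603985 ± 13322 intensity units in LPS and 704033 ± 20872 in sham kidneys (SD, n = 4 each), a ratio of 0.858. The signal of all other entries, with the risen miR-21a-5p among them, gave a ratio of 1.17 of LPS over sham. A share of light is not a share of molecules, because probes differ in how well they bind, and a share falls when any other entry rises.

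**Figure D1:**
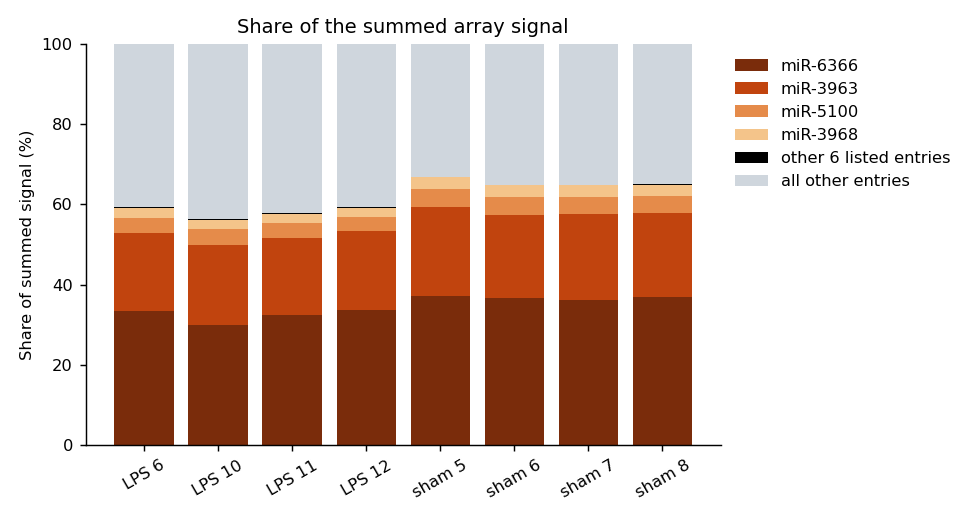
Stacked bars of the share (percent) of each array's summed signal held by the 4 brightest listed entries, the other 6 listed entries and all other entries, for 4 LPS and 4 sham arrays. The coloured part averages 58.3% on LPS arrays and 65.5% on sham arrays, most of it from miR-6366 and miR-3963.

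The other 6 entries did not bear out the name abundant to the same degree. MiR-709 held 0.174% of the LPS and 0.149% of the sham signal and ranked 53 by mean share. MiR-6538 ranked 123, miR-2137 ranked 156 and miR-5112 ranked 219, and the highest share among these on any array was 0.0549%. MiR-6238 was above background on 0 of 4 LPS and 3 of 4 sham arrays, and miR-6240 on 0 of 8 arrays. The 5 brightest entries outside the list were miR-21a-5p, let-7a-5p, let-7f-5p, let-7c-5p and miR-30a-5p, with mean shares between 1.42% and 3.18%. The dimmest tested entry of the list, miR-5112, stood at 0.00826% between miR-200a-5p at 0.00832% and miR-6973b-5p, which differed from it by less than the last digit given.

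All 8 arrays lay on 1 slide, and between 15.8% and 17.5% of the 56430 non-control spots were well above background, with 0 saturated. Between 336 and 375 miRNAs were detected on each array. Of 7 miRNAs known from kidney tubules 6 were detected on every array and miR-215-5p on none, while liver miR-122-5p was detected on 0. Of 3 striated muscle markers, miR-1a-3p was detected on all 8 arrays and miR-133a-3p and miR-206-3p on none. Of 2 brain markers, miR-9-5p was detected on all 8 arrays and miR-124-3p on none. By the limma fit described below, 3 of the 6 detected tubule miRNAs were called lower in LPS. The difference was -0.19 for miR-204-5p (adjusted p = 0.0378), -0.33 for miR-194-5p (adjusted p = 0.0107) and -0.28 for miR-192-5p (adjusted p = 0.0277). MiR-10a-5p at 0.10, miR-10b-5p at 0.11 and miR-30a-5p at -0.11 did not pass the test. The log2 of the summed levels of the 7 tubule markers was 5.95 to 6.15 on LPS arrays and 6.09 to 6.20 on sham arrays. In such a sum the brightest markers weigh most. The leukocyte markers miR-223-3p, miR-142a-3p, miR-150-5p and miR-155-5p were detected on all arrays, of which 2 were called higher in LPS, miR-155-5p by 1.68 and miR-223-3p by 0.86. MiR-142a-3p at 0.26 (limma adjusted p = 0.171) and miR-150-5p at -0.22 (limma adjusted p = 0.126) did not pass. Both red-cell markers were called higher in LPS with overlapping groups, miR-144-3p by 2.46 (limma adjusted p = 0.0235) and miR-451a by 2.43 (limma adjusted p = 0.0285). MiR-144-3p was detected on 4 LPS and 2 sham arrays, so its difference rests in part on values at or near the floor. The log2 of the summed levels of the 4 leukocyte markers was 1.54 to 1.66 on LPS arrays and 0.81 to 1.29 on sham arrays. The log2 of the summed levels of the 2 red cell markers was 1.01 to 3.78 on LPS arrays and -0.97 to 1.64 on sham arrays. In whole tissue, fewer cells of a type and less RNA per cell cannot be told apart. The part of tubule and blood cells in the differences below was not tested.

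For the comparison of groups, signals were divided by the 75th percentile of each array and put on a log2 scale. The fit with limma covered the 338 miRNAs detected on all arrays of at least 1 group, with Benjamini-Hochberg adjustment over all of them and a threshold of 0.05. Of the 10 entries, 8 were tested and 5 called, against 40.2% of all tested miRNAs. In LPS kidneys 4 were lower and 1 was higher, where 25.4% of all tested miRNAs were called lower and 14.8% higher. The median difference was -0.26 for the 8 entries and -0.08 for all 338. Since the entries were listed with earlier results of this comparison known, these counts describe them and no more. The 50 higher and 86 lower calls over all miRNAs became 55 and 53 with the percentile taken over all probes, 57 and 49 without scaling, 34 and 155 with scaling to labelling spike-ins, and 33 and 182 with scaling to the summed signal of the unlisted entries. The last 2 scalings moved the median of all miRNAs to -0.23.

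The 4 brightest entries fell together after LPS, each by less than a fold change of 1.5. MiR-6366 had log2 levels of 9.39, 9.25, 9.28 and 9.45 on LPS replicates 6, 10, 11 and 12, against 9.71, 9.68, 9.61 and 9.61 on sham replicates 5 to 8. No LPS array reached the lowest sham array. The difference was -0.31 ± 0.06 (SE), to 0.805 of the sham level (limma adjusted p = 0.00569). MiR-3963 had levels of 8.62, 8.65, 8.54 and 8.66 on the LPS arrays, against 8.96, 8.87, 8.85 and 8.78 on the sham arrays. These groups were also apart, by a difference of -0.25 ± 0.06 (SE, limma adjusted p = 0.0116). The miR-3963 call was lost with the percentile over all probes (-0.19, adjusted p = 0.0541) and without scaling (-0.17, adjusted p = 0.0688).

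MiR-5100 had log2 levels of 6.22, 6.33, 6.08 and 6.19 on the LPS arrays, against 6.63, 6.64, 6.53 and 6.49 on the sham arrays. Every LPS value lay below every sham value, with a difference of -0.37 ± 0.07 (SE, limma adjusted p = 0.00429). MiR-3968, which shares the stretch CGAAUCCCA with miR-5100, had levels of 5.66, 5.54, 5.44 and 5.65 on the LPS arrays, against 6.08, 5.98, 5.96 and 5.93 on the sham arrays. It fell the most of the 4, by 0.42 ± 0.07 (SE, limma adjusted p = 0.00187), to 0.749 of the sham level. Non-overlapping groups with LPS below sham were found for 24.9% of all tested miRNAs.

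Before any scaling, miR-6366 differed by -0.24, miR-5100 by -0.29 and miR-3968 by -0.34, and these 3 passed the test. Bright control probes on the same arrays did not move as one before scaling. Dmr_3, hur_1 and hur_4 differed by 0.01, 0.06 and 0.02, and dmr_6 and hur_2 by -0.04 each. Hur_2, the brightest control, stood below all sham values on each LPS array. The other 4 stood above all sham values on each LPS array, namely dmr_285 by 0.34, hur_6 by 0.30, mr_1 by 0.11 and dmr_31a by 0.10. Scaled to dmr_285 and dmr_31a, used as labelling spike-ins, the falls of the 4 entries were larger, from -0.56 for miR-3968 to -0.39 for miR-3963. Quantile normalization of probes gave 0 for miR-6366 and miR-3963, which it does by construction, since their probes kept the same ranks on every array. It left miR-5100 at -0.11 (adjusted p = 0.243) and miR-3968 at -0.74. As entries, miR-5100 stood at rank 3 on each sham array and rank 4 on each LPS array. MiR-3968 stood at rank 4 on each sham array and rank 5 on each LPS array. Quantile normalization sets a probe's value by its rank, so -0.11 and -0.74 depend on steps between ranks. They are not read as sizes of a fall. The 4 entries were lower in each of the 4 slide columns, where 1 LPS and 1 sham array lie above each other. Groups that do not overlap fix this sign in advance, so the columns add only the sizes, between -0.52 and -0.13. Each row of the slide held arrays of 1 group alone, and its part in a difference cannot be told apart from that of LPS.

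**Figure D2:**
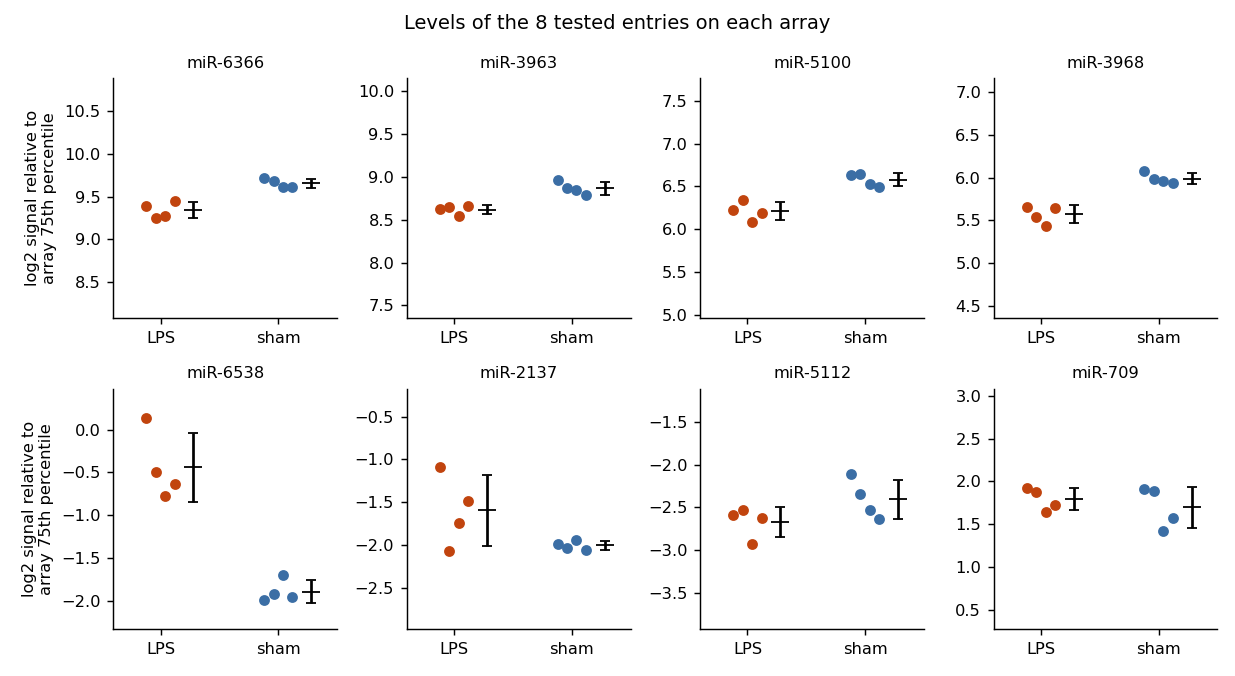
Log2 signal over the array's 75th percentile for the 8 tested entries, with 1 point per array (4 LPS left, 4 sham right) and bars for mean ± SD, all panels spanning the same range. MiR-6366, miR-3963, miR-5100 and miR-3968 show LPS arrays just below sham arrays, and miR-6538 shows LPS arrays well above.

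MiR-6538 moved the other way and by more. Its log2 levels were 0.14, -0.49, -0.78 and -0.63 on LPS replicates 6, 10, 11 and 12, against -1.995, -1.92, -1.70 and -1.96 on sham replicates 5 to 8. All LPS arrays were above all sham arrays, LPS replicate 6 farthest. The difference was 1.45 ± 0.19 (SE), or 2.74-fold (limma adjusted p = 7.11e-04), and it ranked 10 among the 338 differences counted from the highest. It was higher in all 4 slide columns, by 0.93 to 2.13, a sign that groups without overlap fix in advance. With normexp background correction, which adds an offset of 50 intensity units, the difference was 0.88. Non-overlapping groups with LPS above sham were found for 12.1% of tested miRNAs.

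MiR-2137, with a GC content of 85.7%, had log2 levels of -1.09, -2.07, -1.74 and -1.48 on the LPS arrays, against -1.99, -2.03, -1.94 and -2.06 on the sham arrays. LPS replicate 6 was again the highest, LPS replicate 10 lay at the sham level, and the groups overlapped. The difference of 0.41 ± 0.18 (SE, limma adjusted p = 0.105) did not pass the test. Its 95% interval ran from -0.0047 to 0.82. Without LPS replicate 10 the difference was 0.57 and was called (limma adjusted p = 0.0196). Without LPS replicate 6 it was 0.24 and was not called (limma adjusted p = 0.169), so its size leans on single arrays in both directions.

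MiR-709 had log2 levels of 1.93, 1.88, 1.64 and 1.73 on the LPS arrays, against 1.91, 1.89, 1.43 and 1.57 on the sham arrays. The groups overlapped, and the difference of 0.10 ± 0.12 (SE, limma adjusted p = 0.560) had a 95% interval from -0.19 to 0.38. Its sign turned with scaling to labelling spike-ins and to the summed signal of unlisted entries (-0.05 with each). MiR-5112 had levels of -2.59, -2.53, -2.93 and -2.62 on the LPS arrays, against -2.11, -2.34, -2.54 and -2.64 on the sham arrays. The difference was -0.26 ± 0.13 (SE, limma adjusted p = 0.145), with a 95% interval from -0.56 to 0.038. Those same 2 scalings gave -0.41 for miR-5112 and called it (limma adjusted p = 0.0247 and 0.0214). Both also moved the median of all tested miRNAs to -0.23. The unlisted entries include miR-21a-5p, which held 5.31% of the LPS and 1.05% of the sham signal.

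MiR-6238 was not well above background on any LPS array and was not among the 338. Its brighter probe had 13.3% to 46.7% of its spots above background on LPS arrays and 46.7% to 86.7% on sham arrays, with measured log2 means of -4.99 in LPS and -4.55 in sham kidneys. No fold is given, since 1 sham array was itself not above background. Among the 404 miRNAs detected on at least 1 array, its difference was -0.11 (limma adjusted p = 0.218). All LPS values and that of sham replicate 8 were set to the floor of the log2 scale there, so the floor shapes this difference and its p-value. Nor is a fold given for miR-6240, which was below background in both groups.

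**Figure D3:**
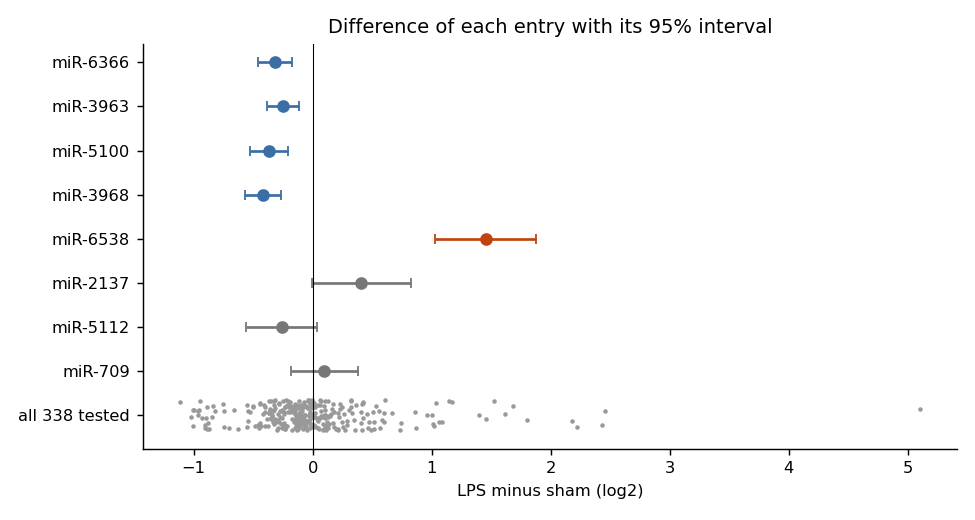
Log2 difference of LPS minus sham for the 8 tested entries with 95% intervals (blue lower, orange higher, grey not called) and, in the bottom row, for all 338 tested miRNAs as single grey points. The 4 falls lie between -0.42 and -0.25, inside the main cloud of miRNAs, while miR-6538 at 1.45 lies in its upper tail.

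Both probes of an entry gave the same direction in every case. Of the 20 probes, 16 were tested among 633 probes, of which 38.9% were called, 24.6% lower and 14.2% higher. Among the 16, 8 were lower and 2 higher, namely both probes of the 5 called entries. The 12-base and 11-base probes of miR-6366 differed by -0.36 and -0.29, and the 15-base and 14-base probes of miR-3968 by -0.42 and -0.43. The 10-base and 9-base probes of miR-6538 differed by 1.37 and 1.55. The largest gap was at miR-2137, with 0.46 for the 13-base and 0.27 for the 12-base probe, neither of which passed the test. The coefficient of variation over the spots of a probe had a median of 1.54% for miR-6366, 6.39% for miR-6538 and 13.1% for miR-5112, and it was lower in each of the 4 brightest entries, at 1.41% to 2.36%, than in the other 4 tested.

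**Figure D4:**
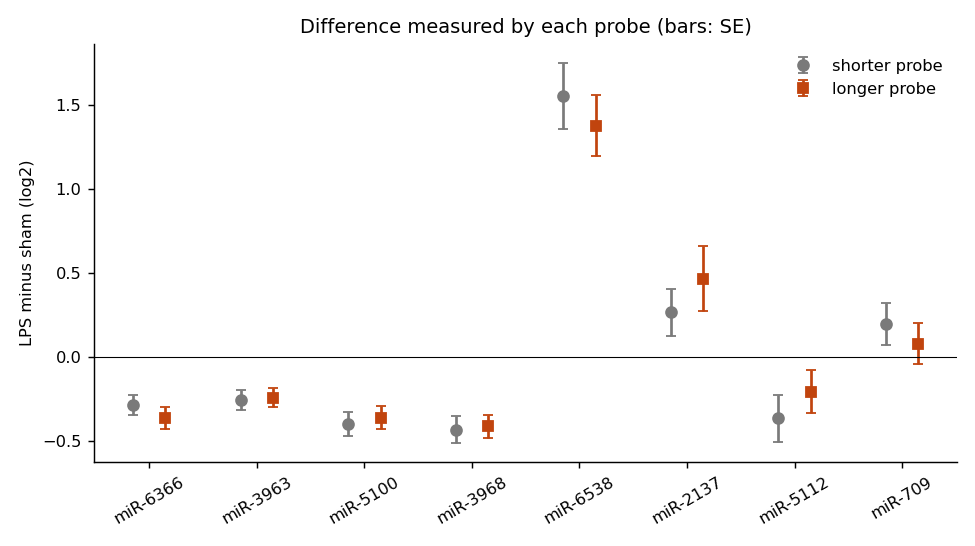
Log2 difference of LPS minus sham measured by the shorter (circle) and the longer (square) probe of each tested entry, with bars for SE over 4 LPS and 4 sham arrays. The pair agrees in sign for all 8 entries, and both probes of miR-6538 lie above 1.3.

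Likeness between profiles was measured as the root mean square difference of log2 levels, each centred on its mean over the 8 arrays, with the difference between groups left in. It therefore partly restates that difference and is given as a description. Between any 2 of the 4 falling entries it was 0.07 to 0.10, from these to miR-5112 0.13 to 0.16, to miR-709 0.22 to 0.29, to miR-2137 0.42 to 0.48 and to miR-6538 0.89 to 0.96. Outside the list, the profiles nearest to miR-6366 were miR-6965-5p (0.05) and miR-320-3p (0.05), which were also the nearest to miR-3963 (0.05 and 0.04). MiR-326-3p (0.04) and miR-324-5p (0.05) were nearest to miR-5100. MiR-212-3p (0.05) and miR-6995-5p (0.06) were nearest to miR-3968. The differences of these 6 ran from -0.45 to -0.29, a size that their choice by likeness fixes. The nearest to miR-6538 were miR-3091-5p (0.18) and miR-3082-5p (0.20). Their choice likewise fixes a higher level in LPS, for miR-3091-5p against a sham mean at the floor of the log2 scale.

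The array holds 253 other entries with no arm in the name and a number above 700, of which 37 were tested. Of these, 10 were lower and 6 higher in LPS kidneys, with a median difference of -0.02. Among all 338 tested miRNAs 25.4% were lower and 14.8% higher, with a median of -0.08. Among the brightest entries outside the list, let-7a-5p differed by -0.03, let-7f-5p by -0.01 and miR-30a-5p by -0.11, none of which passed the test (limma adjusted p = 0.670, 0.877 and 0.204). MiR-21a-5p differed by 2.22.

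**Figure D5:**
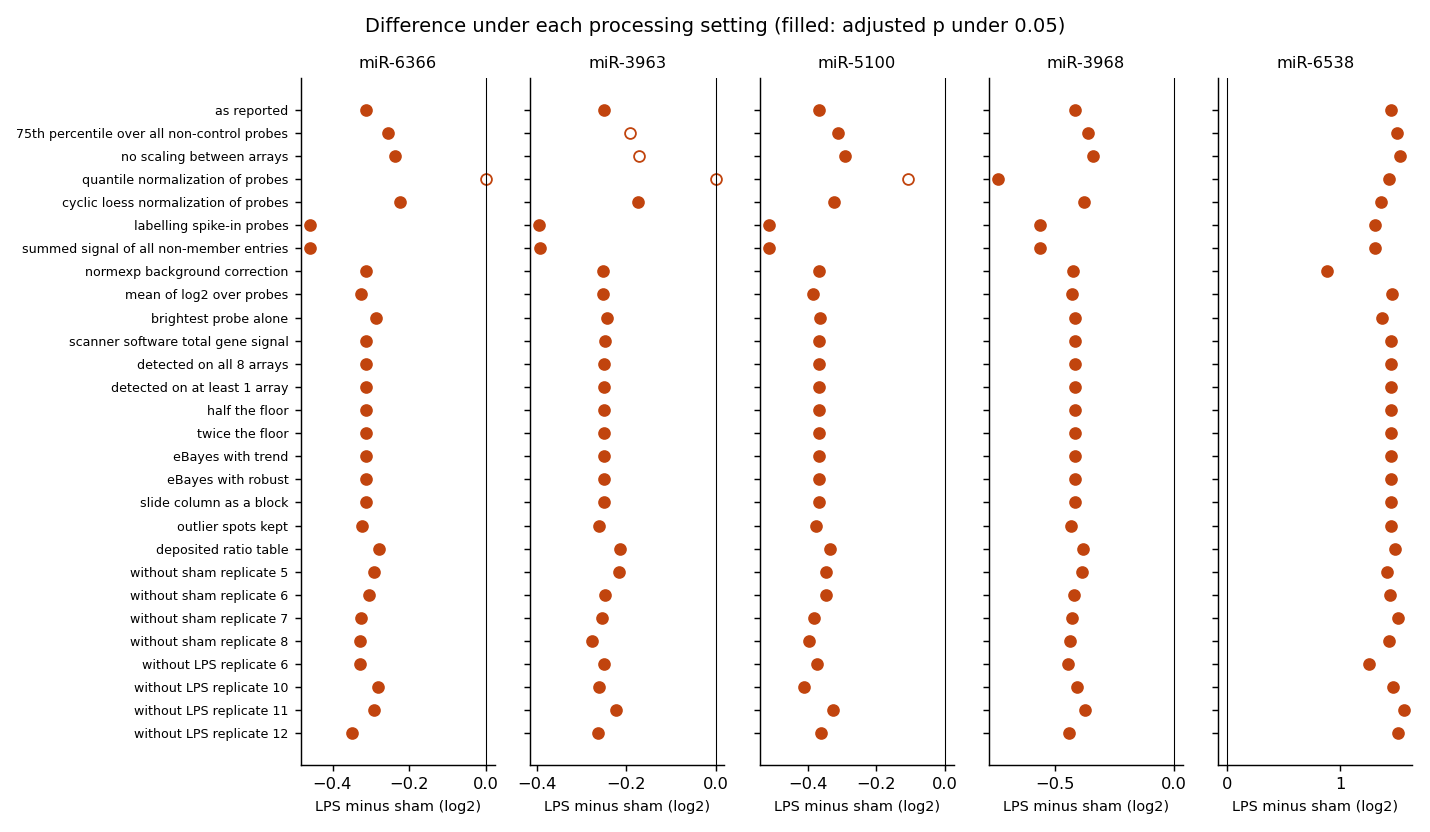
Log2 difference of LPS minus sham for the 5 called entries under each processing setting and without each array in turn, with filled points for adjusted p under 0.05 and open points otherwise. MiR-3968 and miR-6538 are filled throughout, while open points appear for miR-3963 with 3 scalings and for miR-6366 and miR-5100 with quantile normalization.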

How the data were processed

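The authors deposited linear spot intensities, the scanner output of 8 single-colour Agilent miRNA arrays, from 30 mg of tissue and 100 ng of Cy3-labelled total RNA per the labels. Per the file headers, background was removed by spatial detrending and arrays were not scaled. The software was Agilent Feature Extraction 12.0.3.1, according to the submitters' processing notes. The authors also deposited 1 linear ratio per miRNA and array, used as an alternative. After 1 factor per array and per miRNA, 100% of its values for 383 miRNAs lay within 0.01 log2 of the scanner software's total gene signal. The array factors are unknown. Its column medians were 0.958, 0.960, 1.01 and 1.03 for LPS replicates 6, 10, 11 and 12 and 0.995, 1.06, 1.05 and 0.980 for sham replicates 5 to 8.

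Outlier spots were left out and spots of a probe averaged. Arrays were divided by their 75th percentile over the 551 probes detected on all arrays (over 50% of spots above background). Probes of an entry were summed, raised to a floor near the lowest detected signal (-4.68 on the log2 scale) where lower, and put on the log2 scale. No tested member value lay at the floor. The 2-sided group test came from limma (version 3.58.1, under R 4.3.3), fitted without covariates. On simulated data of this comparison over 338 miRNAs, the fit recovered 61.3% of changes of 1.25-fold and 96.0% of 2-fold. Of the simulated calls, 3.61% were false. The simulations changed 60 miRNAs and used independent noise, whereas 40.2% of miRNAs were called in the data, so recovery there may differ. The number of arrays limits the precision. The members and lists were chosen with earlier results of these data known. Named besides the members were the 5 brightest other entries, the entries on either side of the dimmest tested member, the 2 nearest profiles of each called member, and the tissue markers. Other entries named, such as those with a shared seed or a CCA end and the control probes, were chosen after their values or sequences were seen. Alternatives covered scaling, background, probe summary, filter, floor, variance model, slide column, outlier spots, the denominator of the share, the ratio table and leaving out each array.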

Additional observations from a re-analysis of the deposited data

Results flagged for a closer look

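In 18 groups of 4 arrays examined (the 8 tested entries and the summed share, in LPS and in sham), 1 array stood apart from its group, and about 0.9 would by chance. On sham replicate 5 the 10 entries held 66.9% of the signal, against 64.9% to 65.1% on the other sham arrays.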

How the results depend on the processing

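Over 27 alternatives, miR-3968 and miR-6538 kept direction and call in all, miR-6366 and miR-5100 in 26 and miR-3963 in 24. The filter, floor, variance-model and slide-column settings left the differences of these entries unchanged. There only the adjusted p-value could move, so their direction was fixed in advance. Quantile normalization left 1 entry and 3 of their probes lower. That entry, miR-3968, changed rank between the groups, so its -0.74 under this setting depends on steps between ranks. The count of 27 for miR-3968 includes this setting. Without each array in turn, 1 to 2 entries were higher and 4 lower, and 2 to 4 probes were higher and 8 to 9 lower. MiR-709 turned to -0.049 with labelling spike-ins and to -0.048 with the summed signal of unlisted entries. Without background subtraction the 10 entries held 49.3% of the LPS and 55.7% of the sham signal, and with miR-21a-5p left out (added after seeing the data) 61.5% and 66.2%. Leaving out arrays gave 57.9% to 58.9% in LPS and 65.0% to 65.7% in sham. Other entries with no arm numbered 3 higher with spike-ins, 2 higher with the signal of unlisted entries, 3 higher and 3 lower with slide column as a block, 6 lower when detected on all 8 arrays, 6 lower in the ratio table, and 3 to 8 higher and 4 to 11 lower without each array. Over all miRNAs, 50 were higher and 86 lower, against 35 and 45 with the block, 46 and 53 in the ratio table, and 33 to 54 and 49 to 106 without each array. The cause of these changes was not tested. No paired analysis was possible because the groups share 1 replicate number. Signals below background limit miR-6240 and miR-6238.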

Other observations

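Of the 291 tested miRNAs found in RefSeq, 8 end in CCA, 2 of them listed entries, a grouping made after the values were seen and therefore not tested. Of these, 5 fell after LPS: miR-212-3p (-0.45), miR-3968 (-0.42), miR-6995-5p (-0.34), miR-6366 (-0.31) and miR-7022-3p (-0.16). MiR-6908-5p and miR-3620-3p differed by -0.12 each and were not called, and the myeloid miR-223-3p rose by 0.86. Over all 338 tested miRNAs, 25.4% were called lower and 14.8% higher.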
